A study of Mus musculus with 8 samples.

Results

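The genes of the core de novo lipogenesis pathway were followed in mouse liver after loss of Huwe1, a ubiquitin ligase that marks proteins for degradation. They are Slc25a1, Acly, Acss2, Acaca, Acacb, Fasn, Me1 and Thrsp, chosen by symbol for their place between citrate export and palmitate. The deposited table lists 16640 genes, and all 8 lipogenesis genes were found in it. Bulk RNA sequencing of whole liver compared 4 Huwe1_LKO mice, labelled as lacking Huwe1 in the liver only, with 4 WT mice. All mice were 1 year old and ate ProLab RMH 3000 chow without restriction. The Cre driver, the deleted exons, the sex of the mice and the hour of harvest were not stated in the labels.

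De novo lipogenesis turns surplus carbohydrate into fatty acid in the cytosol of hepatocytes. Citrate leaves the mitochondrion and is split to acetyl-CoA, acetyl-CoA is carboxylated to malonyl-CoA, and fatty acid synthase builds palmitate from both with electrons from NADPH. In the liver the genes are known to respond to insulin through SREBP-1c and to glucose through ChREBP, so that they are high in the fed state and low in fasting.

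The table holds 1 normalized expression value per gene and group, and no values per liver were analysed, so each level below is the authors' group value in normalized reads. Its error is carried by the log2 fold change of Huwe1_LKO over WT, whose standard error was worked out from the deposited p under an assumed Wald test. A gene is said to have risen or fallen where its deposited DESeq2 adjusted p is under 0.05. The group values summed to 17533080 normalized reads in Huwe1_LKO and 17347886 in WT. In whole tissue, fewer cells of a type and less RNA per cell cannot be told apart.

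The deleted gene, Huwe1 (Entrez ID 59026, GRCm38 chromosome X, 151800785 to 151935417), had a value of 1784 in Huwe1_LKO and 2666 in WT, so that 66.9% of the WT level remained. In the authors' deposited table it fell by 0.58 on the log2 scale (implied standard error 0.13, adjusted p = 0.000425). Which exons and which cells gave the remaining reads was not analysed here.

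All 8 lipogenesis genes fell in Huwe1_LKO livers and none rose. By the same rule 5.56% of all genes in the authors' deposited table were lower (925 of 16640) and 4.41% were higher (734), 9.97% in either direction. With all fold changes centred on the most abundant eighth of genes, a shift of -0.08 on the log2 scale, 625 were lower and 1168 higher. The lipogenesis genes are abundant, and abundant genes pass more often: of 2196 genes with a mean value of 1000 or more, 15.5% were lower. The median log2 fold change of the 8 genes was -1.53 in the authors' deposited table, beside 0.02 for all genes and -0.08 for the genes with a mean value of 1000 or more. Summed, their group values came to 26433 normalized reads in Huwe1_LKO and 86855 in WT, a 3.29-fold fall. These sums were 0.151% of all normalized reads in Huwe1_LKO and 0.501% in WT.

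The proximal upstream sequences of Fasn, Acly and Slc25a1 are shown as examples. RefSeq promoter windows for GRCm38.p6 covered all 8 genes with 9 windows, 2 of them for Me1. Those of Fasn, Acaca and Acacb, and that of Me1 from 86687278, lie inside the gene spans given below, before internal starts. Each sequence is the 250 bases before the annotated start, read 5′ to 3′ on the gene's strand, and none of the 3 overlaps an annotated exon. In all, 5 windows overlap none. Those of Acaca, which holds neither CCAAT nor GGGCGG, and of Me1 from 86687278 are not shown. Capitals mark CCAAT and GGGCGG on either strand, so that ATTGG and CCGCCC are also in capitals. The windows are Fasn at chr11:120824548-120824797 (minus strand), Acly at chr11:100528001-100528250 (minus strand) and Slc25a1 at chr16:17928220-17928469 (minus strand).
Fasn: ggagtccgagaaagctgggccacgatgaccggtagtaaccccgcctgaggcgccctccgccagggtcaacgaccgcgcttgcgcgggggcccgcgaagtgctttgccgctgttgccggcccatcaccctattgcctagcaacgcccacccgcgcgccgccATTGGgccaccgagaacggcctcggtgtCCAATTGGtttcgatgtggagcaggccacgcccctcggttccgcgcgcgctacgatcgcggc
Acly: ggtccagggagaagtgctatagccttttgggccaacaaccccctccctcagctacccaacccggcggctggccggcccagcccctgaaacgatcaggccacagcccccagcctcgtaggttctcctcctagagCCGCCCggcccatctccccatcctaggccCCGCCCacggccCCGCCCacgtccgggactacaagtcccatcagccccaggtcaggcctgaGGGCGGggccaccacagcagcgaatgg
Slc25a1: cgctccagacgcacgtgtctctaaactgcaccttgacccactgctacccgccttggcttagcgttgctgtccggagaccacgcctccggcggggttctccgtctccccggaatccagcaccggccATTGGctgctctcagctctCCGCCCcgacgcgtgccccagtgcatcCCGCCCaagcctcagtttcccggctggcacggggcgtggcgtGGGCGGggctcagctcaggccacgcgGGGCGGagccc

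CCAAT, the core of the box bound by NF-Y, and GGGCGG, the core of the GC box bound by Sp1, belong to elements that work beside SREBP at lipogenic promoters. In the Fasn window CCAAT lies 90 to 86 bases before the start, and again in opposite orientations 62 to 58 and 59 to 55 bases before it, where the 2 matches overlap. The Acly window holds GGGCGG 4 times, at 117 to 112, 88 to 83, 76 to 71 and 27 to 22 bases before the start, and no CCAAT. That of Slc25a1 holds CCAAT once, 125 to 121 bases before the start, and GGGCGG 4 times, at 106 to 101, 79 to 74, 37 to 32 and 11 to 6 bases. CCAAT was found upstream of 6 of the 8 genes, in 6 of their 9 windows, and in 33.8% of all 32851 such windows. GGGCGG was found upstream of 4, in 4 of the 9 windows, and in 32.7% of all. The CCAAT of Fasn, Acacb and Me1 lies in windows inside the gene spans. The palindrome CACGTG, an E-box of the kind bound by USF and ChREBP, was found upstream of Slc25a1 alone and in 6.02% of all windows. No window of the 8 genes held TCACCCCAC, a sterol regulatory element sequence that 0.496% of all windows hold. These are letter matches on both strands in a short window and say nothing of binding.

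The pathway starts with Slc25a1, the mitochondrial citrate carrier that exports citrate to the cytosol (Entrez ID 13358, chromosome 16, 17925211 to 17928219 in GRCm38). Its group value was 3604 normalized reads in Huwe1_LKO and 6090 in WT, and 59.2% of the WT level remained. In the authors' deposited table the log2 fold change was -0.76 (implied standard error 0.10, 95% interval -0.95 to -0.56, adjusted p = 1.58e-11). This was the smallest fall of the 8 genes and also the one with the narrowest interval.

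Acetyl-CoA for the cytosol comes from citrate through Acly, ATP citrate lyase, and from acetate through Acss2, the cytosolic acetyl-CoA synthetase. Acly (Entrez ID 104112, chromosome 11, 100476352 to 100528000) had 3385 normalized reads in Huwe1_LKO and 7564 in WT, 2.23-fold lower. Its log2 fold change in the authors' deposited table was -1.16 (implied standard error 0.28, 95% interval -1.71 to -0.61, adjusted p = 0.00112). Acss2 (Entrez ID 60525, chromosome 2, 155518043 to 155562743) had 2421 in Huwe1_LKO and 7394 in WT, 3.05-fold lower. The authors' deposited table puts its log2 fold change at -1.61 (implied standard error 0.24, 95% interval -2.07 to -1.15, adjusted p = 1.27e-09). Both routes to acetyl-CoA were thus lower, and the intervals of the 2 genes overlap. Per kilobase of deposited gene length, the level of Acly was 0.897 times that of Acss2 in Huwe1_LKO and 0.656 times in WT.

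Malonyl-CoA is made by the acetyl-CoA carboxylases. Acaca encodes the cytosolic form, ACC1, whose product feeds fatty acid synthesis, and Acacb encodes ACC2 at the outer mitochondrial membrane, whose product is known to block fatty acid entry through CPT1. Acaca (Entrez ID 107476, chromosome 11, 84129635 to 84401651) had 1355 normalized reads in Huwe1_LKO and 2664 in WT. The authors' deposited table gives it a log2 fold change of -0.98 (implied standard error 0.17, 95% interval -1.30 to -0.65, adjusted p = 3.76e-07). Acacb (Entrez ID 100705, chromosome 5, 114146321 to 114250761) had 391 in Huwe1_LKO and 2563 in WT, 6.56-fold lower, and its log2 fold change in the authors' deposited table was -2.71 (implied standard error 0.26, 95% interval -3.22 to -2.21, adjusted p = 6.86e-23).

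The intervals of the 2 carboxylases do not overlap, and the difference between their falls was not tested. Per kilobase, their levels in WT livers were nearly equal, at 294 normalized reads for Acaca and 302 for Acacb, whereas in Huwe1_LKO livers they were 150 and 46.0. The ratio of Acaca to Acacb per kilobase was 3.26 in Huwe1_LKO and 0.976 in WT. Added together, the 2 genes had 196 normalized reads per kilobase in Huwe1_LKO and 596 in WT. In GENCODE transcripts for GRCm38, the coding parts of Acaca and Acacb share no run of 50 bases. Acaca, unlike Acacb, shares 70.2% of such runs with the processed pseudogene Gm5182, so its level and these ratios are less certain.

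Fasn, the multifunctional synthase that assembles palmitate, had the highest group value of the 8 genes in both groups (Entrez ID 14104, chromosome 11, 120805958 to 120825166). It had 7292 normalized reads in Huwe1_LKO and 33089 in WT, 4.54-fold lower. In the authors' deposited table the log2 fold change was -2.18 (implied standard error 0.26, 95% interval -2.68 to -1.68, adjusted p = 7e-15). Per kilobase, Fasn stood 4.90 times as high as Acaca in Huwe1_LKO and 11.3 times as high in WT.

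Me1, cytosolic malic enzyme, yields NADPH for the synthase and had the largest fall of the 8 genes (Entrez ID 17436, chromosome 9, 86581363 to 86695914). Its value was 1317 normalized reads in Huwe1_LKO and 9230 in WT, 7.01-fold lower. The log2 fold change in the authors' deposited table was -2.81 (implied standard error 0.22, 95% interval -3.23 to -2.39, adjusted p = 3.03e-35). Only 7 of the 16640 genes had a log2 fold change further below 0 in that deposited table.

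Thrsp encodes Spot 14, a small acidic protein responsive to thyroid hormone and carbohydrate that is no enzyme and is known to promote lipogenesis (Entrez ID 21835, chromosome 7, 97412933 to 97417550). It had 6670 normalized reads in Huwe1_LKO and 18262 in WT, 2.74-fold lower. The authors' deposited table lists a log2 fold change of -1.45 (implied standard error 0.34, 95% interval -2.12 to -0.78, adjusted p = 0.000703), the widest interval of the 8. Per kilobase it was the most abundant of the 8 genes, with 5934 normalized reads in Huwe1_LKO and 16247 in WT.

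**Figure D1:**
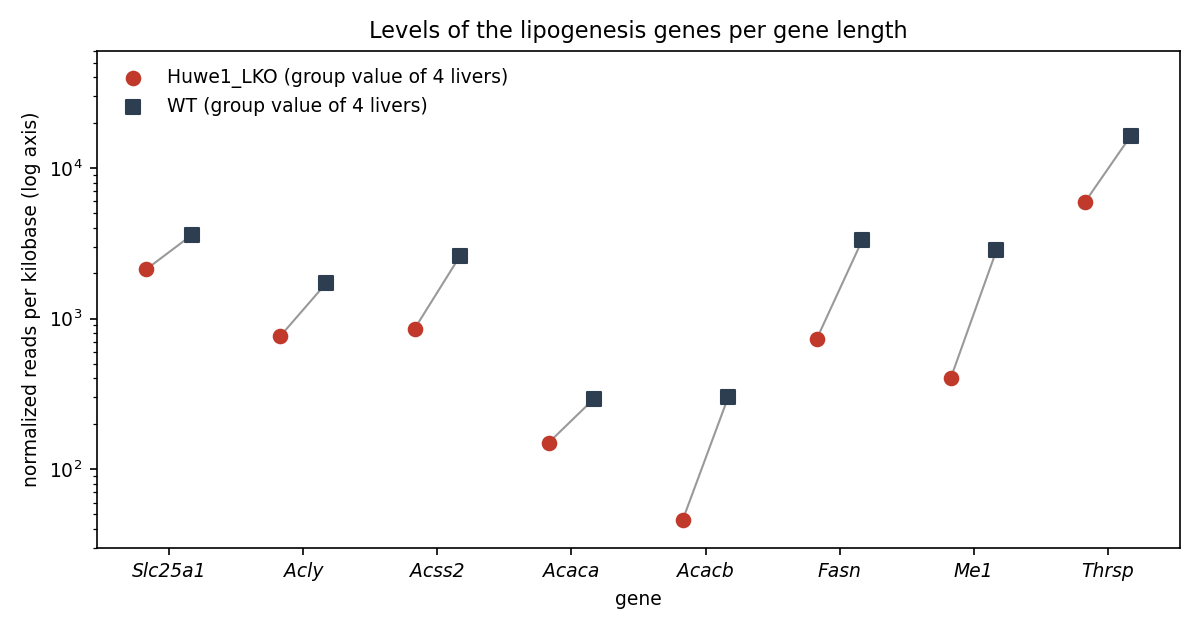
Authors' group value of each lipogenesis gene divided by its deposited length, in normalized reads per kilobase on a log axis, with circles for Huwe1_LKO and squares for WT, each standing for 4 livers. Every circle lies below its square, and the line is steepest for Me1 (404 in Huwe1_LKO and 2834 in WT) and Acacb (46.0 in Huwe1_LKO and 302 in WT).

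The plot of levels per kilobase shows that the order of the genes differed between the groups. In Huwe1_LKO the order was Thrsp, Slc25a1, Acss2, Acly, Fasn, Me1, Acaca and Acacb, and in WT it was Thrsp, Slc25a1, Fasn, Me1, Acss2, Acly, Acacb and Acaca. Without values per liver, it was not tested which neighbours in these orders differ. The middle of the order was close: Acss2 and Acly stood at 854 and 766 in Huwe1_LKO, beside 734 for Fasn. As a share of the summed level per kilobase, Thrsp made up 53.9% in Huwe1_LKO and 52.5% in WT. Slc25a1, which fell least, made up 19.3% in Huwe1_LKO and 11.6% in WT. The share of Fasn was 6.66% in Huwe1_LKO and 10.8% in WT, and that of Me1 was 3.67% in Huwe1_LKO and 9.16% in WT.

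**Figure D2:**
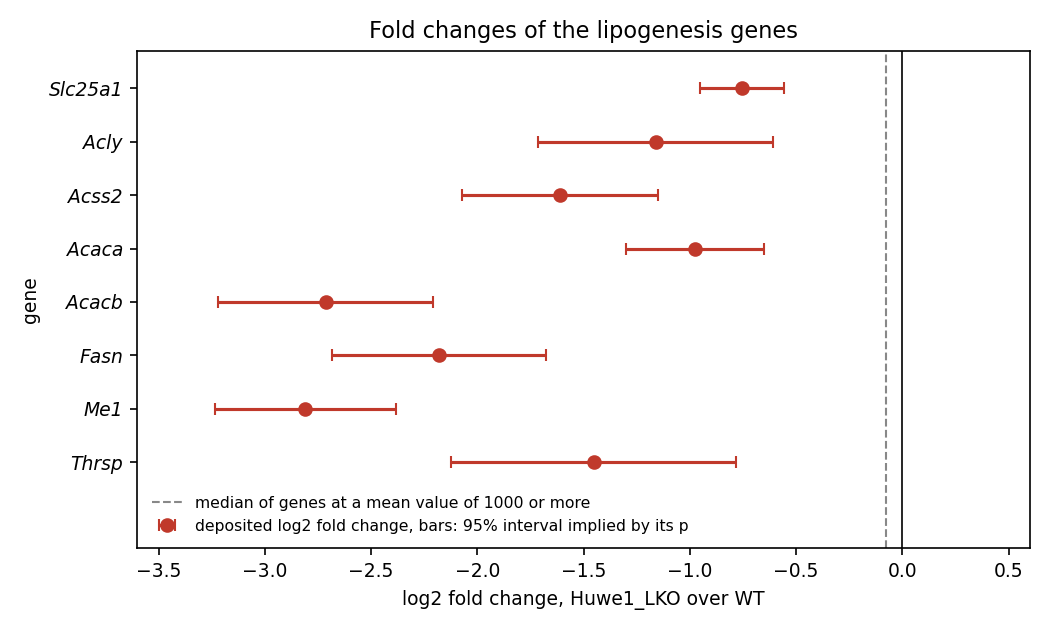
Deposited log2 fold change of Huwe1_LKO over WT for each lipogenesis gene, in pathway order, with bars for the 95% interval that the deposited p implies. All 8 intervals lie below 0 and below the dashed line at -0.08, the median of genes with a mean value of 1000 or more.

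The falls were unequal, and the plot of fold changes sets them side by side. Of 28 pairs among the 8 genes, 13 had 95% intervals that do not overlap. Me1 and Acacb stood apart from Slc25a1, Acly, Acss2, Acaca and Thrsp, and Fasn from Slc25a1 and Acaca. Slc25a1 also stood apart from Acss2. The other 15 pairs overlapped, among them Acacb and Me1 with Fasn. The difference between 2 genes measured in the same livers was itself not tested, since its error needs values per liver.

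A fall of 1 or more on the log2 scale was found for 274 genes in the authors' deposited table, of which 59 had a mean value of 1000 or more. Among the lipogenesis genes 6 reached it, all but Slc25a1 and Acaca. A log2 fall of 2 or more was found for 35 genes, 12 of them at a mean value of 1000 or more, and Fasn, Acacb and Me1 were among these 12. Ranked by the fall in the authors' deposited table, Me1 was 8th and Acacb 10th of 16640 genes, followed by Fasn at 25, Acss2 at 76, Thrsp at 104, Acly at 196, Acaca at 289 and Slc25a1 at 494.

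**Figure D3:**
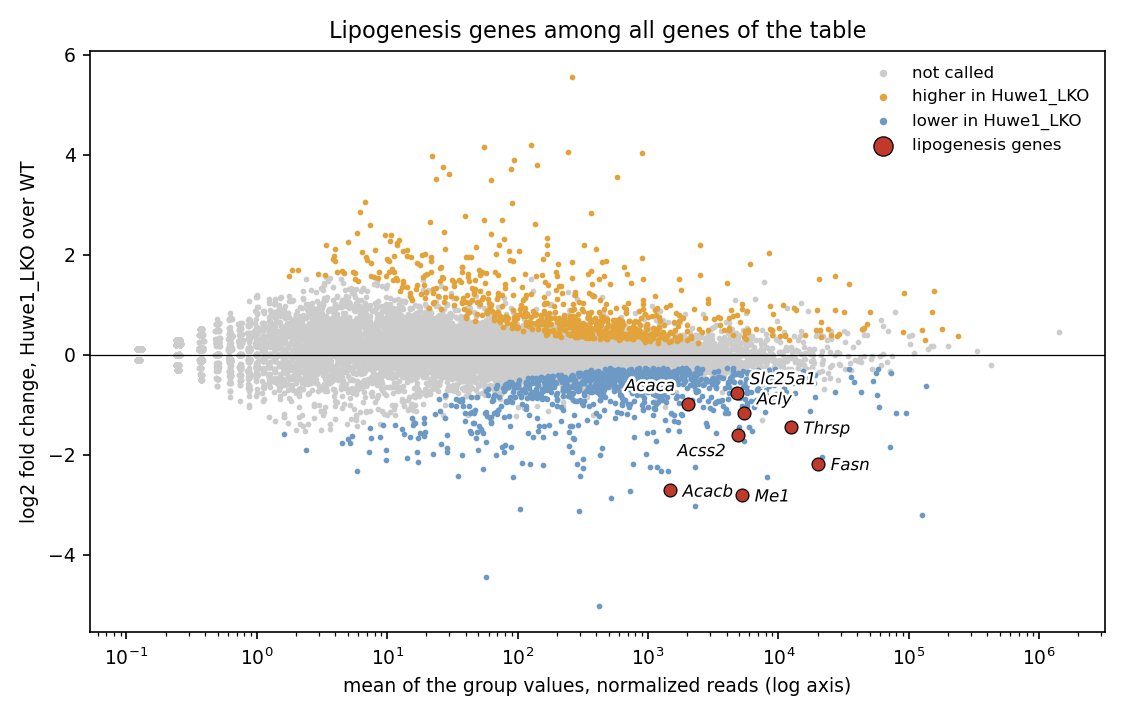
Log2 fold change of Huwe1_LKO over WT against the mean of the group values (normalized reads, log axis) for all 16640 genes, with genes called higher in orange, called lower in blue, not called in grey and the lipogenesis genes as large red points. The 8 red points lie on the right, at mean values over 1000, and all lie below 0.

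The implied standard errors of the lipogenesis genes had a median of 0.25, beside 0.13 for the genes with a mean value of 1000 or more, and that of Slc25a1, at 0.10, was below the second of these medians. Acly and Thrsp, which had the highest adjusted p of the 8, also had the widest intervals.

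Part of the reads of some of these genes could also come from, or be lost to, other genes. In GENCODE transcripts, 70.2% of the 50-base runs of the coding part of Acaca also occur in the processed pseudogene Gm5182, and 51.9% of those of Me1 occur in the pseudogenes Gm48795, Gm7049 and Gm7329. Acss2 shares 7.95% with Acss2os, Ggt7 and Gss, whose exons overlap its own on the opposite strand. The coding parts of Slc25a1, Acly, Acacb, Fasn and Thrsp share none. The treatment of such reads and the use of strand in the counting are not stated in the labels or headers, so that the values of Acaca, Me1 and Acss2 are less certain than the other 5. Gss, a glutathione synthetase gene, had 1429 normalized reads in Huwe1_LKO and 988 in WT (log2 fold change 0.53, adjusted p = 1.53e-05 in the authors' deposited table), the opposite direction to Acss2.

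The nearest relatives of the lipogenesis genes were counted in the same way. Of 7 such genes, 3 fell, none rose and 4 did not pass, with a median log2 fold change of -0.34 in the authors' deposited table. Slc25a10, the mitochondrial dicarboxylate carrier, had 3863 normalized reads in Huwe1_LKO and 7173 in WT (log2 fold change -0.89, adjusted p = 7.82e-07 in the authors' deposited table). Acss3, a mitochondrial short-chain acyl-CoA synthetase, had 27.2 in Huwe1_LKO and 110 in WT, 4.04-fold lower (adjusted p = 3.93e-06 in the authors' deposited table). Mid1ip1, a relative of Thrsp that binds and activates acetyl-CoA carboxylase, had 1146 in Huwe1_LKO and 1917 in WT (log2 fold change -0.74, adjusted p = 0.0185 in the authors' deposited table).

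Among the relatives that did not pass, the oxoglutarate carrier gene Slc25a11 had 1172 normalized reads in Huwe1_LKO and 1461 in WT (log2 fold change -0.32, adjusted p = 0.1 in the authors' deposited table). The mitochondrial acetyl-CoA synthetase gene Acss1 had 4.94 normalized reads in Huwe1_LKO and 6.24 in WT, and the log2 fold change was -0.34 (adjusted p = 0.831 in the authors' deposited table). The mitochondrial malic enzyme genes were also scarce. Me2 had 28.7 in Huwe1_LKO and 20.1 in WT, and Me3 had 6.05 in Huwe1_LKO and 4.14 in WT (adjusted p = 0.442 for Me2 and 0.672 for Me3 in the authors' deposited table). Neither Me2 nor Me3 passed.

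Genes that attach cofactors to the carboxylases and the synthase, switch them or oppose them were counted next. Of 15, 3 fell, none rose and 12 did not pass, with a median log2 fold change of -0.18 in the authors' deposited table. Hlcs, the ligase that attaches biotin to carboxylases, had 139.9 normalized reads in Huwe1_LKO and 288 in WT, 2.06-fold lower (adjusted p = 2.12e-06 in the authors' deposited table). Aasdhppt, which attaches the phosphopantetheine arm to fatty acid synthase, had 310 in Huwe1_LKO and 424 in WT (log2 fold change -0.45, adjusted p = 0.00231 in the authors' deposited table). The third was Mid1ip1, which is also among the relatives. Of 5 other biotin carboxylase genes, which serve amino acid breakdown and oxaloacetate supply, 4 fell and none rose. They were Mccc1 (log2 fold change -0.87), Pcca (-0.62), Pcx (-0.51) and Mccc2 (-0.48) in the authors' deposited table, with adjusted p between 9.97e-08 for Mccc1 and 0.0429 for Pcx.

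Around citrate export, 9 of 20 genes of citrate supply fell, 1 rose and 10 did not pass. The list covers pyruvate entry, citrate synthesis and citrate import, and cytosolic enzymes such as Aco1. Its median log2 fold change was -0.41 in the authors' deposited table. Citrate synthase (Cs) had 2262 normalized reads in Huwe1_LKO and 3586 in WT (log2 fold change -0.67, adjusted p = 3.24e-08 in the authors' deposited table). Dlat, a core subunit of pyruvate dehydrogenase, fell by 0.86 on the log2 scale, and Aco1, the cytosolic aconitase, by 0.51 (adjusted p = 0.000181 for Dlat and 0.000754 for Aco1 in the authors' deposited table). Pdk1, a kinase that inhibits pyruvate dehydrogenase, also fell, by 1.20 on the log2 scale (adjusted p = 9.75e-05 in the authors' deposited table). Cs and Dlat, which lead to citrate, thus fell along with a kinase that opposes pyruvate dehydrogenase.

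The gene that rose was Slc13a5, the plasma membrane carrier that takes up citrate from the blood. It had 263 normalized reads in Huwe1_LKO and 19.1 in WT, 13.8-fold higher in Huwe1_LKO. In the authors' deposited table the log2 fold change was 3.79 (implied standard error 0.40, adjusted p = 7.5e-19). It moved in the opposite direction to Slc25a1, which brings citrate to the same pool.

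Among 13 sources of NADPH other than Me1, 4 fell, none rose and 9 did not pass, with a median log2 fold change of -0.27 in the authors' deposited table. Pgd, the second NADPH-forming enzyme of the pentose phosphate pathway, had 634 normalized reads in Huwe1_LKO and 1220 in WT, 1.92-fold lower (adjusted p = 4.26e-17 in the authors' deposited table). Nadk, which makes NADP from NAD, had 2602 in Huwe1_LKO and 3888 in WT (log2 fold change -0.58, adjusted p = 1.61e-11 in the authors' deposited table). Cytosolic isocitrate dehydrogenase (Idh1) and the lactonase Pgls had log2 fold changes of -0.54 and -0.33 in the authors' deposited table (adjusted p = 0.00138 for Idh1 and 0.0352 for Pgls). No other gene of the list that passed reached the fall of Me1. G6pdx, the entry enzyme of the pentose phosphate pathway, had 87.6 in Huwe1_LKO and 93.0 in WT and did not pass (adjusted p = 0.916 in the authors' deposited table); it was named after its values were seen.

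Downstream of palmitate, 11 of 21 genes of activation, elongation and desaturation fell, none rose and 10 did not pass, with a median log2 fold change of -0.42 in the authors' deposited table. Scd1, the desaturase that makes oleate, had 24826 normalized reads in Huwe1_LKO and 229174 in WT, and the elongase of polyunsaturated fatty acids Elovl5 had 2573 in Huwe1_LKO and 13919 in WT. Their adjusted p were 6.47e-24 and 8.42e-85 in the authors' deposited table. Elovl6, which extends palmitate to stearate, had 865 in Huwe1_LKO and 3314 in WT (adjusted p = 1.9e-11 in the authors' deposited table). Hsd17b12, the ketoacyl-CoA reductase of the elongation cycle, fell by 0.74 on the log2 scale (adjusted p = 1.94e-09 in the authors' deposited table).

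Among 21 regulators upstream of the lipogenesis genes, 8 fell, 1 rose and 12 did not pass, with a median log2 fold change of -0.20 in the authors' deposited table. The nuclear receptor gene Pparg had 121 normalized reads in Huwe1_LKO and 515 in WT (log2 fold change -2.09, adjusted p = 1.82e-20 in the authors' deposited table). Srebf1, the gene of SREBP-1c, had 5781 in Huwe1_LKO and 10645 in WT (adjusted p = 0.00237 in the authors' deposited table).

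Insig2, which retains SREBP in the endoplasmic reticulum, had 1171 normalized reads in Huwe1_LKO and 2279 in WT (log2 fold change -0.96, adjusted p = 0.000142 in the authors' deposited table). Irs1, an adaptor of the insulin receptor, was the gene that rose, with 413 normalized reads in Huwe1_LKO and 315 in WT (adjusted p = 0.0364 in the authors' deposited table). With the centring on the most abundant eighth of genes, 5 regulators fell and 2 rose, and with the trend over gene length and level removed 4 fell and none rose. The count of regulators therefore depends on the scaling, whereas all 8 lipogenesis genes fell under both.

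Known targets of ChREBP or SREBP-1c outside the 8 genes had the lowest median of the lists set beside them, at -0.74 on the log2 scale in the authors' deposited table. Of 12 such genes 6 fell, none rose and 6 did not pass. Glycerol phosphate dehydrogenase (Gpd1) had a log2 fold change of -1.14, the acyltransferase Gpam of -1.45, ketohexokinase (Khk) of -0.74 and liver pyruvate kinase (Pklr) of -1.05 in the authors' deposited table, with adjusted p no higher than 0.000211. Among 5 thyroid hormone receptor and response genes, Hr, a corepressor gene, fell (log2 fold change -1.56, adjusted p = 0.00702) and Klf9 rose (0.60, adjusted p = 0.0141) in the authors' deposited table. Dio1, Thrb and Thra had log2 fold changes of -0.21, 0.11 and -0.08 there and did not pass.

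Cholesterol synthesis, the other branch from cytosolic acetyl-CoA, had 7 of 20 genes lower, none higher and 13 not called by the authors' deposited table. Acat2, which joins acetyl-CoA units at the start of the branch, had 954 normalized reads in Huwe1_LKO and 2214 in WT (adjusted p = 1.43e-08 in the authors' deposited table). Dhcr7 and Pmvk had log2 fold changes of -0.71 and -0.98 in the authors' deposited table (adjusted p = 0.0149 for Dhcr7 and 0.0251 for Pmvk). Centred on the most abundant eighth 4 genes fell, and with the length and level trend removed 3 fell. Of 10 genes of the separate mitochondrial fatty acid synthesis pathway, 5 fell and none rose, led by the enoyl reductase Mecr at -0.81 on the log2 scale (adjusted p = 6.66e-06 in the authors' deposited table). After the same centring 3 of these fell. Over all these lists together, which hold 171 genes beside the 8, 62 were lower and 7 higher by the authors' deposited table, counting also the fasting and clock lists described next. For these list counts, the shares over all genes were 5.56% lower and 4.41% higher, with 15.5% lower at a mean value of 1000 or more.

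**Figure D4:**
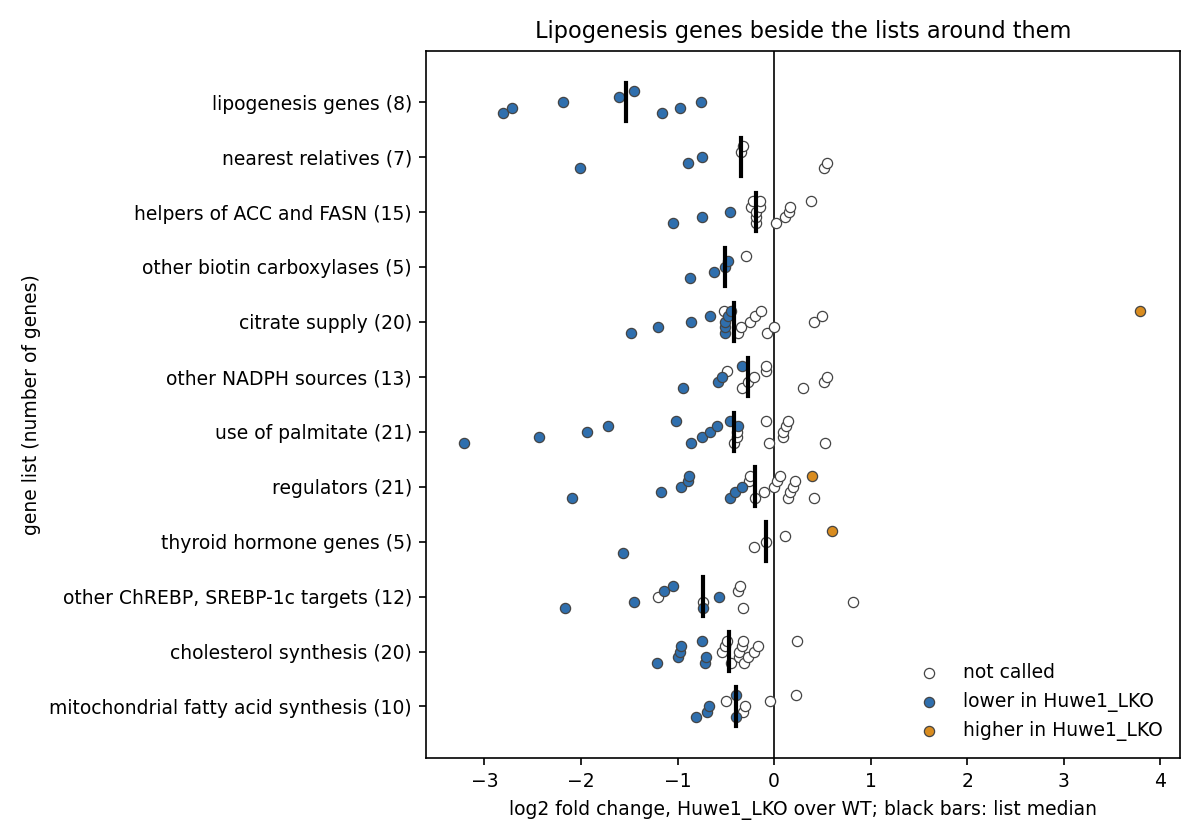
Log2 fold change of Huwe1_LKO over WT for each gene of 12 lists around the pathway, the number of genes in parentheses, with blue points for genes called lower, orange for called higher, open for not called and a black bar for the list's median. The lipogenesis genes have their median at -1.53, and Slc13a5, at 3.79, is the point farthest to the right.

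Feeding state and hour of harvest both move lipogenesis genes in normal liver, and neither is given for these mice. Of 12 genes known to rise in fasted liver, 2 fell and none rose. By the same rule 5.56% of all genes were lower and 4.41% higher, and 15.5% of genes with a mean value of 1000 or more were lower. Pdk4, a second pyruvate dehydrogenase kinase, fell by 1.48 on the log2 scale and the fatty acid hydroxylase gene Cyp4a14 by 1.44 (adjusted p = 0.00705 and 0.0196 in the authors' deposited table). After centring on the most abundant eighth, 1 of the 12 genes rose. Pck1 of gluconeogenesis and the tyrosine aminotransferase gene Tat did not pass, with log2 fold changes of 0.43 and -0.48 in the authors' deposited table. Of 18 clock genes, 4 rose and 2 fell, and after the same centring 5 rose and 1 fell.

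The clock genes that rose were Dbp (log2 fold change 0.59), Usp2 (1.18), Bhlhe41 (1.04) and Per3 (0.62) in the authors' deposited table, and those that fell were Nfil3 (-0.81) and Arntl (-1.18). Their adjusted p lay between 0.00256 for Nfil3 and 0.0339 for Arntl in the authors' deposited table. The part of feeding or of harvest time in the lipogenesis result was not tested.

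Adipocytes express the same pathway strongly, so their markers were read beside it. None of the 6 adipocyte markers analysed passed, and 2 were lower at an unadjusted p under 0.05 in the authors' deposited table. These were the complement factor gene Cfd, with 57.8 normalized reads in Huwe1_LKO and 135 in WT, and the resistin gene Retn, with 1.23 in Huwe1_LKO and 3.30 in WT. Their log2 fold changes were -1.23 and -1.42 in the authors' deposited table (unadjusted p = 0.0289 for Cfd and 0.0089 for Retn, adjusted p = 0.171 and 0.0757). The lipase gene Lipe had 383 in Huwe1_LKO and 361 in WT, and the fatty acid binding protein gene Fabp4 had 81.2 in Huwe1_LKO and 95.3 in WT. The hormone genes Adipoq and Lep, which define fat cells, were both under 1 normalized read in either group, with 0.394 in Huwe1_LKO and 0.368 in WT for Adipoq. Retn, Adipoq and Lep were named after their values were seen. Together the 6 markers summed to 524 in Huwe1_LKO and 595 in WT, and the part of fat cells in the lipogenesis result was not tested. Of 8 hepatocyte markers, 3 rose and none fell, namely Apoa1, Hnf4a and Serpina1c, with log2 fold changes of 0.52, 0.37 and 0.37 in the authors' deposited table. By the same rule 4.41% of all genes were higher and 5.56% lower, and no share of higher genes was worked out for abundant genes alone. Centring on the most abundant eighth moved the number of higher genes in the whole table from 734 to 1168, and the markers were not recounted under it. The marker count rests on few genes with small rises and was not tested against these shares. The 8 markers ranged between 11654 and 1629594 normalized reads in Huwe1_LKO and between 8990 and 1192099 in WT. The markers of the labelled tissue were thus present at high levels, and none was called lower. Tat was below its WT level without passing (log2 fold change -0.48, adjusted p = 0.286 in the authors' deposited table). The part of hepatocyte content in the lipogenesis result was not tested.

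Lipogenesis and glucose production are known to lie in different zones of the liver lobule, so zone markers were counted. Of 6 periportal markers Cyp2f2 rose (log2 fold change 0.39, adjusted p = 0.0473) and none fell in the authors' deposited table, and the sums were 145219 normalized reads in Huwe1_LKO and 145447 in WT. Of 7 pericentral markers the glutamate carrier gene Slc1a2 rose (0.49, adjusted p = 0.000584) and Oat fell (-0.46, adjusted p = 0.0349) in the authors' deposited table, with sums of 193235 in Huwe1_LKO and 185950 in WT. Among markers of other cells, those of Kupffer cells (6 genes), endothelium (5), stellate cells (6), bile duct (5) and lymphocytes (8) had no gene that passed. Their sums were 1805, 1514, 4786, 1620 and 211 normalized reads in Huwe1_LKO, beside 1453, 1437, 4227, 900.4 and 165 in WT. Of 6 neutrophil markers S100a9 and Retnlg rose (log2 fold changes 1.63 and 1.58, adjusted p = 0.0163 and 0.0489 in the authors' deposited table), and the list summed to 231 in Huwe1_LKO and 109 in WT. Beside these marker counts, the shares over all genes were 5.56% lower and 4.41% higher, and each count rests on few genes. The part of these cells in the lipogenesis result was not tested.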

How the data were processed

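Whole-liver RNA of 4 Huwe1_LKO and 4 WT mice was extracted with a column kit and sequenced by BGI, per the labels' protocols. Samples were grouped by the genotype in the labels. The submitters' processing notes name mm10 and DESeq2, without a version. For the aligner, counting, strandedness and filters, the tools and settings were not given in the sources used here.

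In 1 deposited table of 16640 genes, the expression columns hold a normalized signal for KO and WT with a single value each, as made by the authors. The deposited log2 column is headed as the KO/WT change and equals the log2 ratio of these columns to within 4.71e-08. Its p-value columns, per the file headers, hold unadjusted and adjusted values, and the adjusted p-value matched Benjamini-Hochberg over all genes to within 1.74e-06. In 707 genes near 1 read in all, the fold change was 0.11 to 0.12 in size on the log2 scale and neither group stood at 0. This was seen directly only in these genes, and what it means for genes with more reads was not tested. The depth of each liver was not analysed here. The sums of the group values are normalized and are not depths.

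With 1 value per group no count model could be fitted, so calls are the authors' adjusted p under 0.05. Standard errors were the size of the log2 fold change divided by the normal score of its two-sided p, and 95% intervals follow from them. They assume a Wald test, which no source used here states, and none exceeded 0.57. Nothing states more of the 4 mice per group than genotype, age and diet. The deposited p-values therefore set the group difference only against the spread between livers within the groups.

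The 8 genes and the 24 gene lists were chosen with earlier results of these data known. The text names the 8 genes, Huwe1, all nearest relatives and, from each other list, at most 4 called genes per direction with the smallest p, plus at most 3 uncalled genes of the highest mean value where fewer than 3 were called. Some genes this rule selects are not reported here, and genes named outside it are marked as such in the text, apart from Gss, named for its overlap with Acss2. Listed genes were matched by symbol (239) or by a RefSeq synonym (1), and 1 adipocyte gene was unmatched. Coordinates are RefSeq's for GRCm38, counted from 1. Shared runs and exon overlaps come from GENCODE vM21. Alternatives were the adjustment, the threshold, the centring of fold changes, removal of the trend over 5 length and 10 level classes, pseudocounts of 1 and 10, and levels per kilobase. The software was scipy 1.17.1, pandas 2.3.3, numpy 2.4.6 and matplotlib 3.10.9 under Python 3.11.15.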

Additional observations from a re-analysis of the deposited data

How the results depend on the processing

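The 8 lipogenesis genes were lower under each alternative to the call except Bonferroni adjustment, where 6 were (Acly and Thrsp did not pass). Over the scalings and pseudocounts their log2 fold changes kept their sign, with an adjusted p no higher than 0.00347 (Acly). Their median lay between -1.61 and -1.44, leaving out each gene in turn included. As a share of the group total, their summed level in Huwe1_LKO was 0.301 times that in WT. This share was 0.357 times that in WT with all values per kilobase and 0.319 times without the 100 most abundant other genes. The fold change of Huwe1 centred on the most abundant eighth was -0.50 (adjusted p = 0.00366). Of the 171 genes of the lists, the 62 lower ones numbered 23 by Bonferroni, and the 7 higher ones numbered 1 by Bonferroni, 4 at a threshold of 0.01 and 11 after centring on the most abundant eighth. That centring, a shift of -0.08, gave 1168 genes higher and 625 lower of all genes (65.1% higher), beside 734 and 925 (44.2% higher). Over all genes, 163 were higher and 216 lower by Bonferroni, and 414 and 561 at 0.01. Over the settings of each gene list, each lipogenesis gene and the counts of all genes, those named included, 141 values kept their call or stayed within 1.5 times the reported count, 6 grew and 33 shrank. The cause was not tested. Leaving out each liver in turn was not run, as it needs values per liver. No paired analysis was possible because the table holds 1 value per gene and group. The depth of each liver was not analysed here.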

Other observations

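The annotation columns of the deposited table cover the lipogenesis genes unevenly, as read after their values were seen. The Gene Ontology term for fatty acid biosynthesis is carried by 37 genes, of which 11 were lower and none higher in the authors' deposited table. Over all genes the shares were 5.56% lower and 4.41% higher, with 15.5% lower at a mean value of 1000 or more. Acly, Acaca and Fasn carry the term and are among these 11, and the other 5 lipogenesis genes do not carry it. Acacb, the second largest fall among them, has no Gene Ontology term at all, as do 1996 genes of the table (12.0%). The KEGG cell of Thrsp names a guanylate cyclase activator, an unrelated protein. This term alone would therefore return 3 of the 8 genes, and other terms were not searched. Among the 34 other genes with the term, 8 were lower, including the lipase gene Mgll and the peroxisomal transporter gene Abcd3, with log2 fold changes of -1.03 and -0.71 in the authors' deposited table (adjusted p = 4.03e-06 and 0.00626).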
